A study of Mus musculus with 9 samples.

Results

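Neurotrophic factors are secreted proteins that keep neurons alive and shape their connections. The 8 genes described here are 6 such factors and 2 of their receptors: Bdnf, Ntf3, Gdnf, Cntf, Fgf2 and Igf1 as ligands, and Ntrk2 and Ntrk3 as receptors. They were taken as every non-control probe whose RefSeq accession on the array belongs to one of these genes, which gave 17 probes of 55681, for 8 of the 20145 genes that have a symbol on the array. All 17 probes passed the filter on dim signal, so no member was lost to it. Ntrk3 and Igf1 have 4 probes each, Ntrk2 has 3, Cntf has 2, and the other members have 1. The brightest probe stands for a gene.

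The arrays measured RNA from the brains of male C57/BL6 mice, aged 50 to 53 days, with 3 arrays in each of 3 groups. VEGF mice had 90 min of middle cerebral artery occlusion and then 1 µl of rhVEGF-A165 at 10 µg/ml, a growth factor of blood vessels, into the right lateral ventricle 3 h after blood flow returned. MCAO mice had the same occlusion and 1 µl of phosphate-buffered saline by that route at the same time. Sham mice had sham surgery, and the labels name no injection for them. Every brain was collected 24 h after reperfusion, which is 21 h after an injection. The labels state that the 3 experiments used different mice, and they do not say which part or side of the brain was homogenised. The series title asks what VEGF does to expression after focal ischaemia.

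Bdnf protein binds the receptor tyrosine kinase TrkB, made from Ntrk2, and neurotrophin-3, made from Ntf3, binds mainly TrkC, made from Ntrk3. Gdnf acts through a GFR alpha co-receptor and the kinase Ret, and Cntf through its own alpha receptor with gp130 and the leukaemia inhibitory factor receptor. Fgf2 signals through fibroblast growth factor receptors with heparan sulphate, and Igf1 through the Igf1r kinase under the control of binding proteins. In the brain, Bdnf is made largely by neurons, whereas astrocytes are a main source of Fgf2 and Cntf.

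Signals are log2 of the processed intensity relative to the array's 75th percentile, so 0 is the 75th percentile of that array and a step of 1 is a doubling. Levels of different probes are not compared with each other, because probes differ in brightness. A gene was called when limma's two-sided moderated test, in 1 fit of all 9 arrays, gave a Benjamini-Hochberg adjusted p under 0.05 over 30836 genes tested. All 6 brain markers checked (Snap25, Syt1, Gfap, Aqp4, Mbp and Slc1a2) were well above background on all 9 arrays. MCAO array 1 and VEGF array 1 stood apart from the other ischaemic arrays. They scored 130 and 141 on the first principal component, against -8.18 to 15.9 for the other 4 ischaemic arrays and -104 to -90.1 for sham. They were also the dimmest arrays, with 75th percentiles of 797 and 723 intensity units, against 1250 to 1770 on the others. Of their spots 78.7% and 73.0% were well above background, against 79.2% to 81.8% on the others. Results are followed below by their values with these 2 arrays left out. The sham arrays are all on 1 slide and the ischaemic arrays on the other, so slide and ischaemia cannot be told apart. In RNA from whole tissue, fewer cells of a type and less RNA per cell cannot be told apart either.

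Of the 8 genes, Fgf2 was called in both comparisons with sham, where it was higher, and no other member was called. Set against this, 2.81% of all genes were called in MCAO against sham, 2.28% as higher. In VEGF against sham 2.43% were called, 2.07% as higher. No member was called between VEGF and MCAO, a comparison in which 0.00649% of all genes passed.

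Without MCAO array 1 and VEGF array 1, 3 of the 8 were called in both comparisons with sham: Fgf2 and Cntf were higher and Ntf3 was lower. The background was then 20% of all genes in VEGF against sham (8.76% higher, 11.3% lower). In MCAO against sham it was 22.8% (9.79% higher, 13% lower), and between VEGF and MCAO 0.00973%. With 8 genes, counts of 1 and 3 are too small to be set apart from these shares. Groups did not overlap for 4 of the 8 in MCAO against sham, where this held for 40.3% of all genes. They did not overlap for 4 of the 8 in VEGF against sham either, against 42.1% of all genes. In VEGF against MCAO they overlapped for every member, and 5.8% of all genes had groups that did not.

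**Figure D1:**
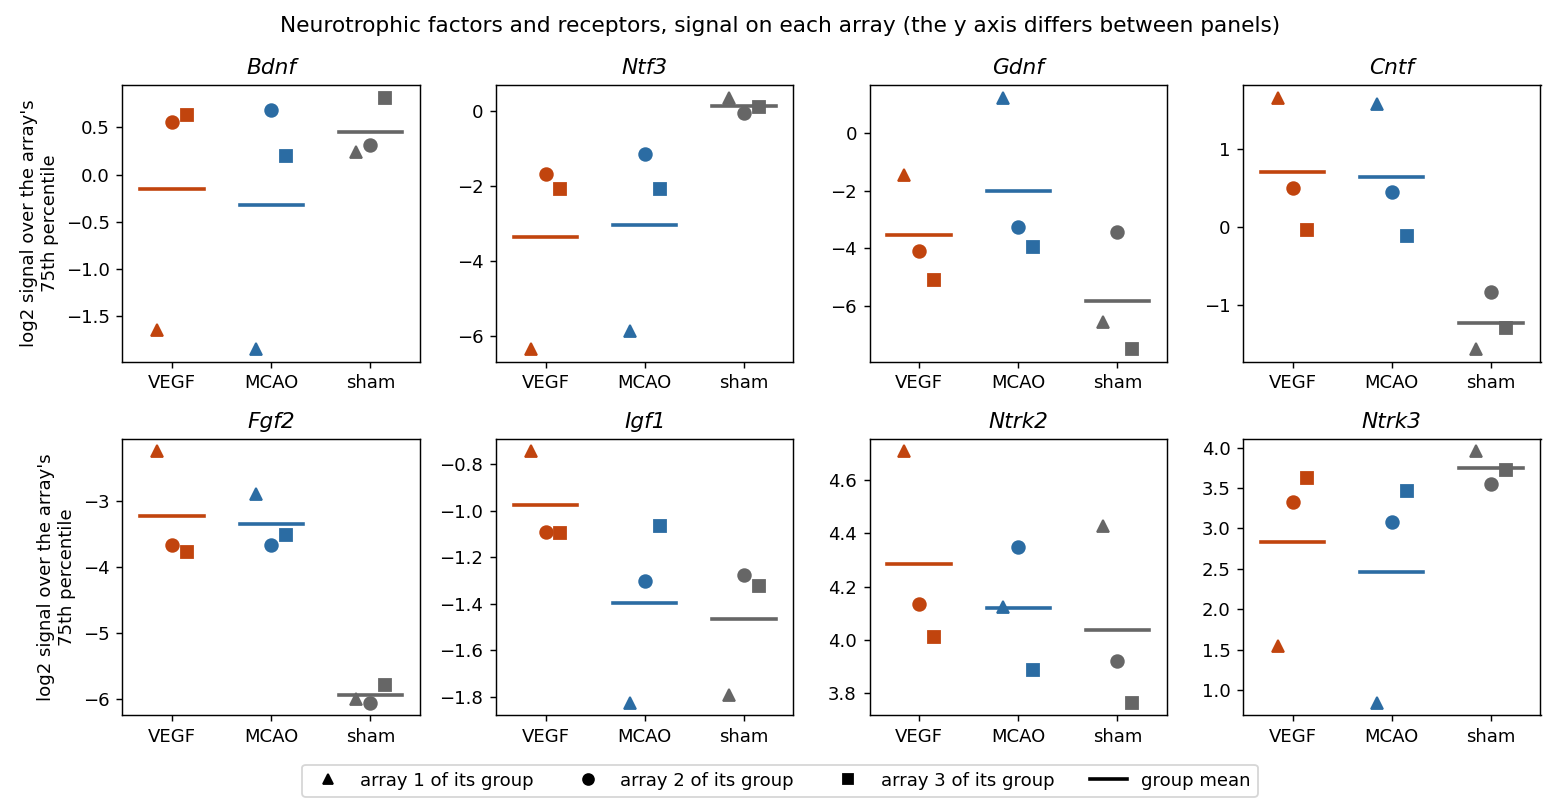
Log2 signal relative to the array's 75th percentile (y axis, different in each panel) for the 8 genes on each array, with 1 column per group and a line at each group mean. The 6 ischaemic arrays sit above all sham arrays for Fgf2 and Cntf and below them for Ntf3, and the triangles of MCAO array 1 and VEGF array 1 lie far from the other arrays of their group for Bdnf, Ntf3, Gdnf and Ntrk3.

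Fgf2, basic fibroblast growth factor, is a mitogen for glia, endothelial cells and neural progenitors. Its single probe is printed in 10 spots per array, and all 9 arrays measured it well above background. The probe was dim, with spots at 11.8 to 34.4 intensity units on sham arrays and 88.4 to 235 on ischaemic arrays. The size of its fold therefore depends on the background subtracted. Fgf2 had -2.24, -3.67 and -3.76 in VEGF mice, -2.89, -3.66 and -3.51 in MCAO mice, and -6.00, -6.06 and -5.79 in sham mice. The lowest ischaemic array was thus above the highest sham array, and the sham arrays lay within 0.27 of each other.

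Fgf2 rose by 2.72 ± 0.41 log2 units in VEGF against sham (SE, n = 3 arrays a group, limma adjusted p = 0.0135), a 6.61-fold difference with a 95% interval of 3.46 to 12.6. In MCAO against sham the rise was 2.60 ± 0.41 (limma adjusted p = 0.0156), or 6.05-fold with an interval of 3.17 to 11.5. Without the pair of arrays that stood apart, the differences were 2.23 ± 0.14 and 2.36 ± 0.14 (limma adjusted p = 0.000742 and 0.000482), so the rise was nearly as large there. Between VEGF and MCAO the difference was 0.13 ± 0.41, with an interval from -0.81 to 1.06.

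The Fgf2 call was lost without any single sham array, while the difference stayed at 2.67 to 2.80 in VEGF and 2.54 to 2.68 in MCAO. Without sham array 1, 2 or 3, the limma adjusted p was 0.0810, 0.0695 or 0.0632 in VEGF against sham and 0.0906, 0.0737 or 0.0673 in MCAO against sham. Without MCAO array 3 it was 0.0509 in MCAO against sham. Normexp background correction was run with an offset of 50 intensity units, which lowers the log2 differences of dim probes. With it the differences were 1.33 and 1.15 and were not called (limma adjusted p = 0.111 and 0.133).

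Fgf2's gene span overlaps that of Nudt6, a protein-coding gene on the other strand, and where the probe lies within the transcript is not given in the sources used here. Nudt6 itself differed from sham by 0.09 ± 0.23 in VEGF and 0.14 ± 0.23 in MCAO (limma adjusted p = 0.818 and 0.734).

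Markers of the cell types that make Fgf2 moved with it in part. Of 10 astrocyte markers, 2 were called higher in VEGF against sham (Vim and Gfap) and 1 in MCAO against sham (Vim). Their summed signal was 673, 368 and 382 times the 75th percentile in VEGF mice, 440, 373 and 352 in MCAO mice, and 286 to 317 in sham mice. On every array Aldoc, the brightest of them, made up more of this sum than the other astrocyte markers together. Relative to the sham mean, the median astrocyte marker was at 0.97, 0.12 and 0.05 in VEGF mice. In MCAO mice it was at 0.02, -0.05 and -0.02. Without the pair, Vim and Gfap were called higher and Gja1 lower in both comparisons. None of 10 endothelial markers was called with all 9 arrays. Their summed signal was 192, 48.4 and 52.7 in VEGF mice, 118, 63.2 and 49.0 in MCAO mice, and 29.8 to 31.1 in sham mice. Without the pair, 4 of the 10 were called higher in both comparisons, Cdh5, Esam, Emcn and Vwf, named after their values were seen. This stands beside 8.76% of all genes in VEGF and 9.79% in MCAO. The other endothelial markers were not called, and Tek was at -0.76 in VEGF and -0.34 in MCAO, and Kdr at 0.07 and -0.06. The median of the list was then 0.56 in VEGF and 0.60 in MCAO. Cdh5, the cadherin of endothelial junctions, then rose by 1.35 ± 0.15 in VEGF and 1.81 ± 0.15 in MCAO (limma adjusted p = 0.00446 and 0.00154). The part of these cell types in the Fgf2 values was not tested.

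Promoter sequence is given for the 3 genes called once the pair of arrays was left out, Fgf2, Cntf and Ntf3, so that the start regions of genes with unlike responses can be set side by side. Each window runs from 250 bases before to 50 after a transcript start in RefSeq on GRCm38.p6, 5′ to 3′ on the gene's strand. Capitals mark the motifs found: a GC box (GGGCGG) in Fgf2 at bases 202 to 207 of the window, an AP-1 site (TGANTCA) in Cntf at bases 6 to 12, and in Ntf3 an E-box (CACGTG) at bases 20 to 25 with a GC box at bases 206 to 211. Both strands were searched.
Fgf2, chr3:37348403-37348702, plus strand: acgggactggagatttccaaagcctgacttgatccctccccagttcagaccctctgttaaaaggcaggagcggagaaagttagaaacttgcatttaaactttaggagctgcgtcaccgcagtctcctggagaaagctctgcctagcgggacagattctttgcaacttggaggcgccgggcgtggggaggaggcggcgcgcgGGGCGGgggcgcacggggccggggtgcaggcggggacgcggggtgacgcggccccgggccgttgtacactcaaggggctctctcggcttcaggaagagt
Cntf, chr19:12765583-12765882, minus strand: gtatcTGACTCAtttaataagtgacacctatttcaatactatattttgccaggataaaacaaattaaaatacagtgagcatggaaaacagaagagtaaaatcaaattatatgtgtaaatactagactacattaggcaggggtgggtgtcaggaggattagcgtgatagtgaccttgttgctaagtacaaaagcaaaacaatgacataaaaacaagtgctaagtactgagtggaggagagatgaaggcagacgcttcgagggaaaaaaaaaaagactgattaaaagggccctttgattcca
Ntf3, chr6:126166695-126166994, minus strand, the first of its 2 windows: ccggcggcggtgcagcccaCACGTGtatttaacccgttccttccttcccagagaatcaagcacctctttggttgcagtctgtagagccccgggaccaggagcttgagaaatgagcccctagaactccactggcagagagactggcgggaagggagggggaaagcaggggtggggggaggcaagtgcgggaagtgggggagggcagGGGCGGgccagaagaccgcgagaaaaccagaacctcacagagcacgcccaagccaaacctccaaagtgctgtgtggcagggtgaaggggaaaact

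The Cntf window is AT-rich, with 36.3% G and C, while the Fgf2 and Ntf3 windows hold 62.7% and 61.0%. A GC box occurs in 35.7% of the 32851 promoter windows of the table, an AP-1 site in 7.81% and an E-box in 7.15%. The Fgf2 and Ntf3 windows both hold a GC box, which is not among the letters of the Cntf window. A cyclic AMP response element (TGACGTCA, in 1.79% of windows), a STAT site (TTCNNNGAA, 8.3%) and a TATA box (TATAAA, 13.6%) were searched as well and are not among the letters of these 3 windows. Of the other members, Igf1 has an AP-1 match, Gdnf a TATA match, Ntrk2 a GC box, and Bdnf matches to STAT, AP-1 and GC box letters in 3 of its 7 windows. A match is a run of letters and not a measured binding site.

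Cntf, ciliary neurotrophic factor, is a cytokine of the interleukin-6 family that keeps motor neurons alive and activates astrocytes. Cntf had 1.66, 0.51 and -0.03 in VEGF mice, 1.58, 0.45 and -0.11 in MCAO mice, and -1.57, -0.84 and -1.30 in sham mice. All 6 ischaemic arrays were above all 3 sham arrays, with the highest values on the pair that stood apart.

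The Cntf difference was 1.95 ± 0.53 in VEGF against sham and 1.87 ± 0.53 in MCAO against sham (limma adjusted p = 0.0972 and 0.103), or 3.86-fold and 3.67-fold. These missed the threshold. Without the pair, Cntf rose by 1.47 ± 0.29 and 1.40 ± 0.29 (limma adjusted p = 0.0214 and 0.0206), and the fold was 2.77 and 2.64. Leaving out MCAO array 1 alone called it in VEGF against sham (limma adjusted p = 0.0381), and leaving out VEGF array 1 alone called it in MCAO against sham (limma adjusted p = 0.0412), since all arrays share 1 estimate of the spread. The second Cntf probe ran the same way, with differences of 1.24 ± 0.52 and 1.43 ± 0.52 (limma adjusted p over all probes 0.202 and 0.181). Without the pair this probe was at 0.84 ± 0.25 in VEGF, where it was not called, and at 0.89 ± 0.25 in MCAO, where it was (limma adjusted p over all probes 0.0591 and 0.0480). The astrocyte and endothelial marker values given for Fgf2 come from the same arrays, and the part of these cell types in the Cntf values was not tested.

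Igf1, insulin-like growth factor 1, is a survival factor for neurons and oligodendrocytes that activated microglia also make. By its brightest probe, Igf1 had -0.74, -1.09 and -1.10 in VEGF mice, -1.83, -1.30 and -1.07 in MCAO mice, and -1.79, -1.28 and -1.32 in sham mice. The 3 VEGF arrays were above all sham arrays, and the MCAO arrays overlapped both other groups. The difference was 0.49 ± 0.26 in VEGF against sham and 0.07 ± 0.26 in MCAO against sham (limma adjusted p = 0.272 and 0.898), and 0.42 ± 0.26 in VEGF against MCAO with an interval from -0.16 to 1.00.

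The 4 Igf1 probes, all annotated to NM_010512 and printed in 2 spots each, did not report the same difference. Probe A_55_P2085984 differed from sham by 1.40 ± 0.43 in VEGF and 1.39 ± 0.43 in MCAO (limma adjusted p over all probes 0.129 and 0.136). Probe A_55_P2031631 differed by 1.21 ± 0.46 in both comparisons (limma adjusted p 0.174 and 0.194). Probe A_55_P2031636 went the other way, by -0.26 ± 0.26 and -0.12 ± 0.26. Of all probes, 1.97% were called in VEGF against sham and 2.25% in MCAO against sham. Among the 17 member probes only that of Fgf2 was, in both comparisons.

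The gaps between Igf1 probes on the ischaemic arrays differed from those on sham arrays, with no common direction. A_55_P2031636 minus A_55_P2085984 was -2.67, -1.36 and -1.35 in VEGF mice, -1.38, -2.05 and -1.47 in MCAO mice, and 0.0027, -0.30 and -0.08 in sham mice, so this pair of probes lay further apart on every ischaemic array. A_55_P2085974 minus A_55_P2085984 was -0.27, 1.02 and 0.93 in VEGF mice, -0.60, 0.14 and 0.91 in MCAO mice, and 1.37, 1.44 and 1.62 in sham mice, so these probes lay closer together on every ischaemic array. Without the 2 arrays that stood apart, A_55_P2085984 was called higher in both comparisons, at 0.87 ± 0.21 and 1.23 ± 0.21 (limma adjusted p = 0.0360 and 0.0125). A_55_P2031631 was then called in MCAO against sham alone, at 1.03 ± 0.20 (limma adjusted p = 0.0169), with 18.1% of all probes called for VEGF and 21.1% for MCAO. The Igf1 difference therefore depends on the probe, and which transcript forms each probe reads is not given in the sources used here. Microglia and macrophage markers moved beside these probes: of 10 measured, 3 were called higher (Msr1, Cd14 and Ptprc) and 1 lower (P2ry12) in both comparisons, with summed signals of 278, 116 and 126 in VEGF mice, 185, 136 and 134 in MCAO mice and 90.5 to 113 in sham mice. Without the pair, 5 of the 10 were called higher in both comparisons, and 1 was called lower in VEGF and 2 in MCAO. Their part in the Igf1 values was not tested.

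**Figure D2:**
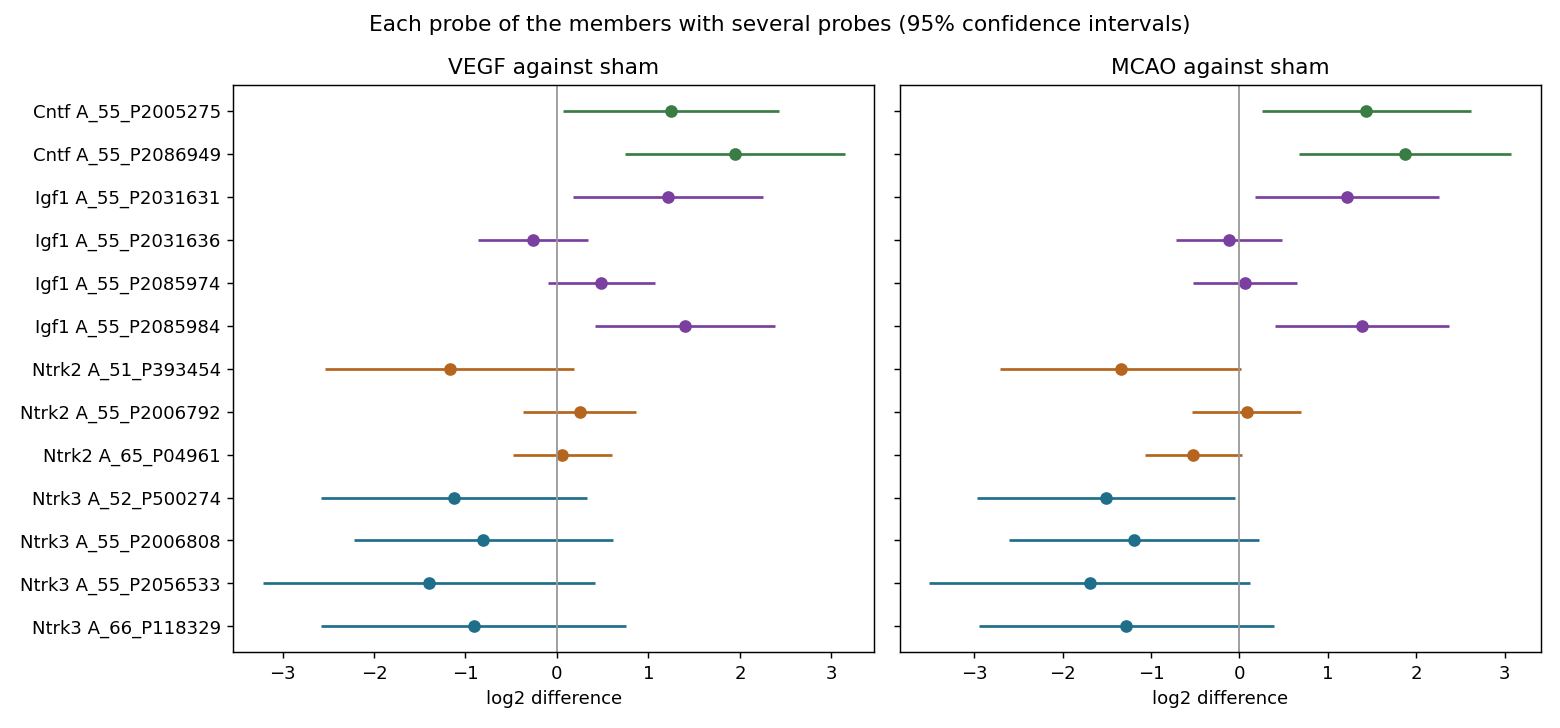
Log2 difference from sham (x axis) with 95% confidence interval for each probe of the 4 genes with several probes, in VEGF and in MCAO. The 4 Ntrk3 probes and both Cntf probes lie on 1 side of 0, whereas the Igf1 probes run from -0.26 to 1.40 in VEGF and the Ntrk2 probes from -1.34 to 0.08 in MCAO.

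Gdnf, glial cell line-derived neurotrophic factor, protects dopaminergic and motor neurons. Gdnf had -1.44, -4.10 and -5.11 in VEGF mice, 1.25, -3.24 and -3.96 in MCAO mice, and -6.54, -3.42 and -7.50 in sham mice, where sham array 3 was not well above background. Groups overlapped, since sham array 2 was above 2 of the VEGF arrays and 1 of the MCAO arrays.

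The Gdnf difference of 2.27 ± 1.60 in VEGF against sham and 3.84 ± 1.60 in MCAO against sham did not pass (limma adjusted p = 0.385 and 0.217). Neither is an exact difference, since 2 of the 3 sham arrays measured the probe well above background, and without sham array 3 they were 1.43 and 3.00. Without MCAO array 1, its highest value, and VEGF array 1 the differences were 1.22 ± 1.13 and 2.22 ± 1.13 (limma adjusted p = 0.475 and 0.198). This member has 1 spot per array and the widest intervals of the 8, which hold a 2-fold change in either direction for VEGF against MCAO.

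Bdnf, brain-derived neurotrophic factor, supports synaptic plasticity and neuron survival. Bdnf had -1.65, 0.56 and 0.64 in VEGF mice, -1.85, 0.69 and 0.20 in MCAO mice, and 0.23, 0.32 and 0.82 in sham mice. Outside the pair that stood apart, the 4 ischaemic arrays lay within or next to the sham range. The differences of -0.61 ± 0.77 and -0.78 ± 0.77 did not pass (limma adjusted p = 0.625 and 0.568), and without the pair they were 0.14 ± 0.23 and -0.01 ± 0.23. The intervals without the pair ran from -0.42 to 0.69 in VEGF and from -0.57 to 0.54 in MCAO.

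Ntf3, neurotrophin-3, supports proprioceptive and hippocampal neurons. Ntf3 had -6.35, -1.69 and -2.08 in VEGF mice, -5.86, -1.14 and -2.09 in MCAO mice, and 0.36, -0.04 and 0.10 in sham mice. All 6 ischaemic arrays were below all sham arrays, and VEGF array 1 was not well above background. The range over the arrays was 4.72 in MCAO, against 0.40 in sham.

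The Ntf3 difference was -3.51 ± 1.44 in VEGF against sham and -3.17 ± 1.44 in MCAO against sham, and it missed the threshold (limma adjusted p = 0.194 and 0.247). Since 2 of the 3 VEGF arrays measured the probe well above background, the VEGF value is not an exact difference, and without VEGF array 1 it was -2.02 (limma adjusted p = 0.427). Without the pair, Ntf3 fell by 2.02 ± 0.30 and 1.75 ± 0.30 (limma adjusted p = 0.00964 and 0.0115), to 0.246 and 0.297 of the sham level. Between VEGF and MCAO it differed by -0.27 ± 0.33 without the pair. With all 9 arrays and normexp background correction, Ntf3 differed from sham by -2.36 in VEGF and -2.23 in MCAO, not called (limma adjusted p = 0.114 and 0.110).

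Neuron markers were lower on the same arrays, and on every ischaemic array the median marker was lower by less than Ntf3. Single markers were not all so: Camk2a on MCAO array 2 and Slc17a7 on VEGF array 2 were lower by more than Ntf3. The other markers on those arrays were lower by less than Ntf3. On VEGF array 1 Ntf3 was not well above background, and on MCAO array 1 its spot read 13.7 intensity units. All 14 markers had negative differences in both comparisons and none was called, with medians of -0.999 in VEGF and -1.05 in MCAO against medians of -0.12 and -0.04 over all genes. Their summed signal was 198, 553 and 683 times the 75th percentile in VEGF mice, 183, 505 and 616 in MCAO mice, and 733 to 758 in sham mice. Relative to the sham mean, Ntf3 was at -6.00 on MCAO array 1, where the median neuron marker was at -2.43. On VEGF arrays 2 and 3 Ntf3 was at -1.83 and -2.22, beside -0.47 and -0.19 for the median marker. On MCAO arrays 2 and 3 it was at -1.28 and -2.22, beside -0.59 and -0.32. Without the pair, 1 of the 14 was called lower in VEGF (Map2) and 3 in MCAO (Map2, Nefl and Stmn2). The part of neurons in the Ntf3, Bdnf and Ntrk3 values was not tested.

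**Figure D3:**
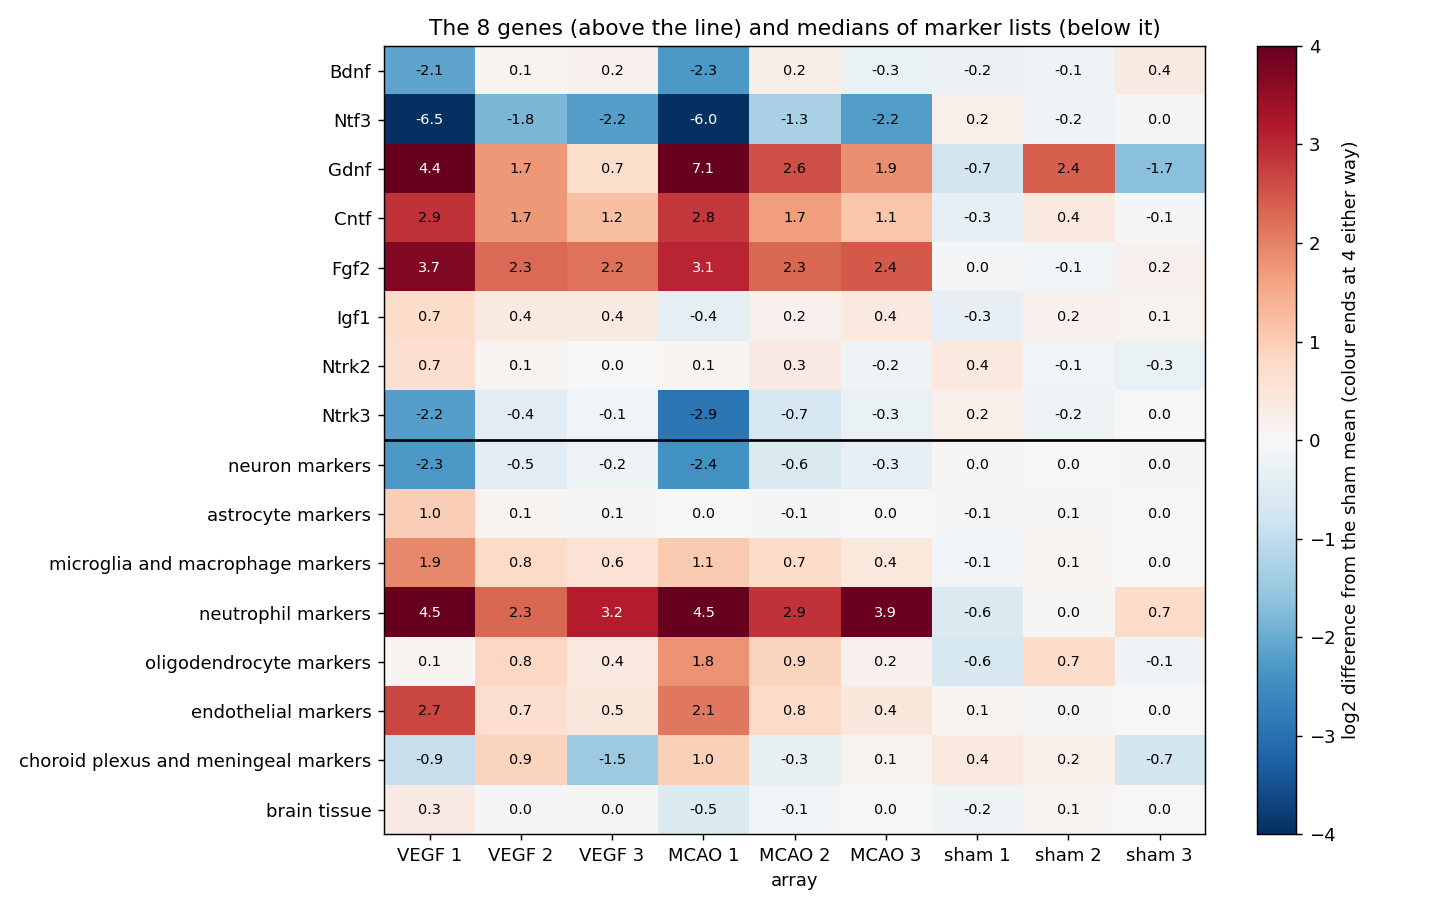
Log2 difference from the sham mean (colour and printed value) for the 8 genes, above the line, and for the median gene of each marker list, below it, on each array. Ntf3 is lower on all 6 ischaemic arrays, with VEGF array 1 not well above background, and the neuron markers are lowest on VEGF array 1 and MCAO array 1, at -2.30 and -2.43.

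Ntrk2 encodes TrkB, the receptor of Bdnf. By its brightest probe, Ntrk2 had 4.71, 4.13 and 4.01 in VEGF mice, 4.12, 4.35 and 3.89 in MCAO mice, and 4.43, 3.92 and 3.76 in sham mice. The 3 groups overlapped. The differences were 0.25 ± 0.27 in VEGF and 0.08 ± 0.27 in MCAO (limma adjusted p = 0.568 and 0.874), with intervals from -0.36 to 0.86 and from -0.53 to 0.69.

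The 3 Ntrk2 probes disagreed. A_51_P393454, printed in 10 spots per array, had 1.01, 2.32 and 2.99 in VEGF mice, 0.71, 2.49 and 2.60 in MCAO mice, and 3.22, 3.26 and 3.36 in sham mice. Every ischaemic array was below every sham array, with differences of -1.17 ± 0.60 in VEGF and -1.34 ± 0.60 in MCAO (limma adjusted p over all probes 0.265 and 0.250). Without the pair these were -0.62 ± 0.21 and -0.73 ± 0.21 (limma adjusted p = 0.0811 and 0.0504), both short of the threshold. This probe and the brightest one, A_55_P2006792, carry the same accession, NM_001025074. The third, A_65_P04961, is annotated to NM_008745 and differed by 0.06 ± 0.24 in VEGF and -0.52 ± 0.24 in MCAO (limma adjusted p 0.889 and 0.263). In the mean over its probes, Ntrk2 differed by -0.29 in VEGF and -0.59 in MCAO, the opposite sign to the brightest probe, and neither was called (limma adjusted p = 0.430 and 0.188). Ntrk2 makes full-length and truncated receptors, and which of them each probe reads is not given in the sources used here.

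Ntrk3 encodes TrkC, the receptor of neurotrophin-3. By its brightest probe, Ntrk3 had 1.55, 3.32 and 3.63 in VEGF mice, 0.84, 3.07 and 3.47 in MCAO mice, and 3.96, 3.55 and 3.72 in sham mice. The MCAO arrays were all below sham, and VEGF array 3 overlapped it. The differences of -0.91 ± 0.74 and -1.28 ± 0.74 did not pass (limma adjusted p = 0.446 and 0.337). Without the pair they were -0.27 ± 0.20 and -0.47 ± 0.20 (limma adjusted p = 0.360 and 0.126).

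All 4 Ntrk3 probes had negative differences, from -1.40 to -0.81 in VEGF and from -1.69 to -1.19 in MCAO, and none was called. Without the pair only A_52_P500274, annotated to NM_182809, was called lower, at -0.56 ± 0.15 in VEGF and -0.80 ± 0.15 in MCAO (limma adjusted p = 0.0456 and 0.0149).

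**Figure D4:**
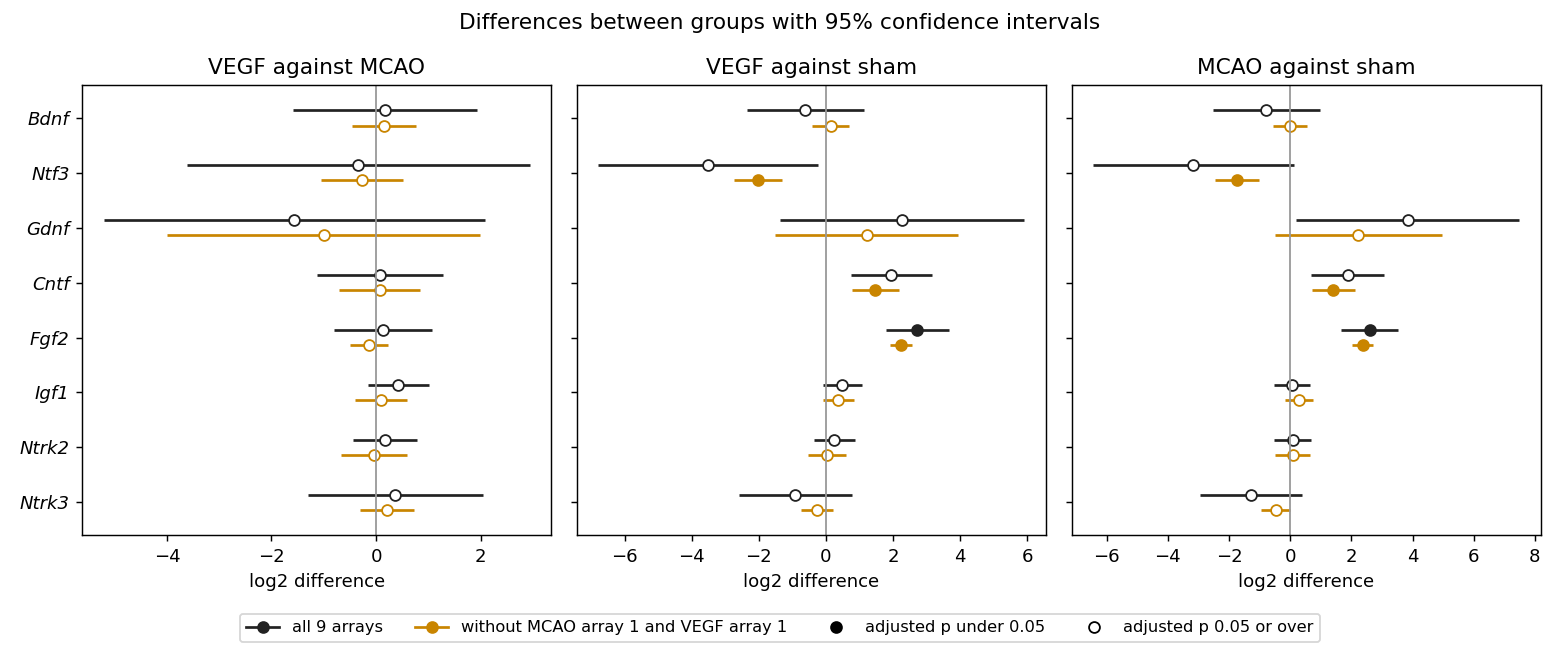
Log2 difference (x axis) with 95% confidence interval for the 8 genes in VEGF against MCAO, VEGF against sham and MCAO against sham, from all 9 arrays (black) and without MCAO array 1 and VEGF array 1 (orange), with filled points for an adjusted p under 0.05. Fgf2 is filled in both comparisons with sham under both fits, Cntf and Ntf3 only without the pair, and no point is filled between VEGF and MCAO.

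Between VEGF and MCAO, which differ in the injected protein, the members differed by -1.56 (Gdnf) to 0.42 (Igf1) log2 units. The Igf1 value is that of its brightest probe, and its other probes differed by 0.0005, -0.15 and 0.01. Of the 8 differences 6 were positive, beside 46.6% of all genes. Without MCAO array 1 and VEGF array 1, those of Ntrk2 and Fgf2 were negative, at -0.05 and -0.13. In the fit of all 9 arrays each interval included 0. Only Ntrk2, from -0.45 to 0.78, had an interval there that left out a 2-fold change in both directions. Bdnf had -1.58 to 1.92, Cntf -1.13 to 1.28 and Ntrk3 -1.31 to 2.05, which hold a 2-fold change either way, while those of Fgf2 and Igf1 just reach a 2-fold rise. The Ntrk2 probe A_65_P04961 differed by 0.58 ± 0.24 with an interval from 0.04 to 1.13 (limma adjusted p over all probes 1.000).

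Without the pair of arrays that stood apart, the intervals were narrower for most members: -0.49 to 0.23 for Fgf2, -0.41 to 0.59 for Igf1, -0.45 to 0.76 for Bdnf, -0.70 to 0.84 for Cntf, -0.31 to 0.72 for Ntrk3 and -0.68 to 0.59 for Ntrk2. In that fit a 2-fold change either way lies outside these 6 intervals. Ntf3 had -1.06 to 0.52, which holds a 2-fold fall, and Gdnf -4.00 to 1.99, which holds a 2-fold change either way.

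The difference was also taken within each pair of same-numbered VEGF and MCAO arrays, whose deviations from their group means were positively correlated. Arrays of unlike number were not compared, and array 1 stood apart in both groups, so these correlations cannot show that numbers pair mice. VEGF minus MCAO in pairs 1, 2 and 3 was -2.68, -0.86 and -1.15 for Gdnf, 0.70, 0.25 and 0.16 for Ntrk3, and 0.08, 0.06 and 0.08 for Cntf. These 3 of the 8 members had 1 sign in all 3 pairs, which held for 27.5% of all genes. With the number as a block and VEGF and MCAO arrays alone, Gdnf differed by -1.56 ± 0.42 with an interval from -2.72 to -0.41 (limma adjusted p = 0.901), and the intervals of the other 7 members included 0. The 2 genes called in the whole table, the acute-phase genes Orm1 and Orm2, were lower in VEGF and are named here after their values were seen. No gene of the whole table was called by limma in the fit with that block, and 1163 had an unadjusted p under 0.05.

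Partners of the 8 genes were counted in lists by pathway, here leaving out the members. Each count with all 9 arrays stands beside 2.07% of all genes called higher in VEGF and 2.28% in MCAO. The shares called lower were 0.357% in VEGF and 0.535% in MCAO. Without the pair the shares were 8.76% higher and 11.3% lower in VEGF, and 9.79% higher and 13% lower in MCAO. Genes named from the fit without the pair were chosen after their values were seen.

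In the neurotrophin list, which holds the other ligands, receptors and processing enzymes, none of the 12 genes tested of 14 listed was called in either comparison with sham, and the median difference was -0.29 in VEGF and -0.32 in MCAO. Without the pair none was called in VEGF and 2 were lower in MCAO, Pcsk1, a convertase that cleaves prohormones, and Maged1, which binds the p75 neurotrophin receptor. In the GDNF family list 1 of the 10 tested of 11 listed was called, Gdf15, a stress-induced TGF-beta family protein that signals through Ret with Gfral. Gdf15 rose by 6.47 ± 0.78 in VEGF and 6.95 ± 0.78 in MCAO (limma adjusted p = 0.00555 and 0.00356). The receptors and co-receptors of Gdnf in this list were not called with all 9 arrays. Without the pair Ncam1, a cell adhesion molecule that also serves as a Gdnf receptor, was called lower, at -0.82 ± 0.14 in VEGF and -1.14 ± 0.14 in MCAO (limma adjusted p = 0.0155 and 0.00485), and Pspn, a ligand of the family, was called lower in MCAO.

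In the list of the CNTF family, 1 of 9 was called. Osmr, the oncostatin M receptor, rose by 3.84 ± 0.21 in VEGF and 3.68 ± 0.21 in MCAO (limma adjusted p = 0.000208 and 0.000212). The median difference of the list was 0.84 and 0.86, above the -0.12 and -0.04 of all genes. Without the pair 3 of 9 were called higher in VEGF (Osmr, Lif and Clcf1) and 4 of 9 in MCAO (with Il6st, which makes gp130), beside 8.76% and 9.79% of all genes.

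In the FGF list 2 of 18 were called higher in both comparisons. Sdc4, a heparan sulphate proteoglycan that presents Fgf2 to its receptors, rose by 2.74 ± 0.35 in VEGF and 2.32 ± 0.35 in MCAO (limma adjusted p = 0.00712 and 0.0125). Fgfr4, an FGF receptor, rose by 2.19 ± 0.39 in VEGF and 2.16 ± 0.39 in MCAO by its brighter probe (limma adjusted p = 0.0248 and 0.0250), and its other probe differed by -0.81 and -0.32. Fgf13, an intracellular member of the family that binds sodium channels in neurons, was called lower in MCAO, at -2.03 ± 0.38 (limma adjusted p = 0.0298), and was at -1.41 ± 0.38 in VEGF (limma adjusted p = 0.0955). Without the pair Fgf13 was called lower in both, at -1.29 ± 0.28 in VEGF and -1.63 ± 0.28 in MCAO (limma adjusted p = 0.0268 and 0.0118). The list then held 2 higher and 3 lower calls in VEGF, and 3 higher and 2 lower in MCAO, with Fgfbp3 lower in both, Fgf10 lower in VEGF and Fgf7 higher in MCAO as the added genes. The list's median difference was 0.35 in VEGF and -0.16 in MCAO.

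In the IGF list 3 of 18 were called in both comparisons, all higher. Igfbp7, a binding protein of the vessel wall, rose by 3.17 ± 0.64 in VEGF and 3.14 ± 0.64 in MCAO. Igfbp1, a secreted binding protein, rose by 2.87 ± 0.36 and 2.52 ± 0.36, and Pappa, a protease that cleaves IGF binding proteins, by 1.85 ± 0.35 and 1.90 ± 0.35. Their limma adjusted p ran from 0.00696 to 0.0450. Without the pair 5 of 18 were called higher in VEGF and 7 of 18 in MCAO, beside 8.76% and 9.79% of all genes, and none was called lower. Igfbp3 and Stc2 were added in both comparisons, and Igfbp4 and Stc1 in MCAO.

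None of 11 other neurotrophic ligands and receptors was called with all 9 arrays. Without the pair Manf, an endoplasmic reticulum stress protein, was called higher and Ptn, pleiotrophin, lower in both comparisons, and Mdk, midkine, higher in MCAO. Of 18 adaptors and feedback regulators downstream of receptor tyrosine kinases 1 was called, Shc3, an adaptor made in neurons that links Trk receptors to Ras. Shc3 fell by 1.13 ± 0.20 in MCAO (limma adjusted p = 0.0264) and was at -0.80 ± 0.20 in VEGF (limma adjusted p = 0.0873). Without the pair it was called lower in both, at -0.72 ± 0.20 in VEGF and -1.13 ± 0.20 in MCAO (limma adjusted p = 0.0484 and 0.0124). The list then held 4 higher calls in both comparisons (Shc1, Sh2b2, Spry1 and Spred1), and Frs3 was called lower in MCAO. No list held a call between VEGF and MCAO in either fit.

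The genes whose values were most like a member's were named by their correlation over the 9 arrays among 7758 genes, as a description: the arrays share 3 groups and the pair that stood apart. The 3 nearest to Fgf2 were Ctla2a, Ctla2b and Ripk3, each with Pearson's r of 0.997. Nearest to Cntf were Ttf2, Syngr2 and Jpt2, with r from 0.994 to 0.997, and nearest to Ntf3 were Eml6, Col22a1 and Tmem150c, with r from 0.994 to 0.996. Ntrk3 was most like Rtn2, 2210016L21Rik and Nae1 (r from 0.995 to 0.998), Bdnf like Srrm4, Adamts16 and Frmd3 (0.978 to 0.986), and Gdnf like Tnni3, Mboat1 and Wipf1 (0.965 to 0.977). Igf1 and Ntrk2, which varied least over the arrays, had lower values at 0.919 to 0.933 (Cthrc1, Grpr and Gm5065) and 0.871 to 0.903 (Nt5dc2, Pcdhga5 and Tmem221).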

How the data were processed

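Brain RNA of 3 VEGF, 3 MCAO and 3 sham mice was measured on 1-colour arrays, 200 ng labelled with Cy3 per array. The deposited scanner files hold the intensity of 62976 spots per array. Per the file headers, Agilent Feature Extraction 10.7.1.1 subtracted background and divided by a spatial detrending factor, deposited as a ratio per spot, and MCAO array 1 alone was processed without that step. The authors' deposited table holds log2 values normalized by a step not stated, and served as an alternative.

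From these files, spots of a probe were averaged on the log2 scale without outlier spots, and each array's 75th percentile (723 to 1770 intensity units) was subtracted. Kept were 43920 probes well above background, meaning on at least 0.5 of their spots, on all 3 arrays of a group. Gene names came from RefSeq GRCm38.p6 by accession. limma 3.58.1 in R 4.3.3 (statmod 1.5.0) fitted all 9 arrays. Total degrees of freedom were 8.48 and the median standard error was 0.31 log2 units, so the number of arrays limits precision. The fit was tested on simulated data.

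The members, lists and naming rule (members, up to 3 called genes per list, direction and comparison, and the 3 most correlated genes) were chosen with earlier results of these data known. Deviations from the group means were correlated between same-numbered arrays: 0.587, 0.224 and 0.558 for MCAO with VEGF, and -0.107 to 0.151 for sham with either. Arrays of unlike number were not compared, so this does not show pairing. MCAO array 1 was also scanned apart from the other 8 arrays. A_ names are Agilent probe names. A listed marker gene is not reported here.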

Additional observations from a re-analysis of the deposited data

How the results depend on the processing

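Leaving out arrays or weighting them moved the counts of calls by over 1.5 times. Over leave-one-out fits, 156 to 3270 genes were called in VEGF against sham, 190 to 2583 for MCAO against sham and 1 to 3 between VEGF and MCAO, with 0 to 2 members called in each comparison with sham. Without MCAO array 1 and VEGF array 1, 6175 genes were called in VEGF against sham and 7028 in MCAO against sham, with 3 members each. Array weights (gene by gene, 0.114 for MCAO array 1 and 0.143 for VEGF array 1) gave 7094 genes in VEGF against sham, 12387 for MCAO against sham, 27 for VEGF against MCAO, and the same 3 members, Ntf3, Cntf and Fgf2. Normexp gave 440, 558 and 0 genes in the same order (280 unadjusted in the last) and no member. Fitting only the groups compared gave 1788 genes for MCAO against sham and 1 for VEGF against MCAO. VEGF against MCAO gave 0 genes with recomputed signal (849 at an unadjusted p under 0.05), 4 with quantile normalization, and 0 when MCAO and VEGF arrays alone were fitted with the replicate block, an alternative chosen after seeing the data (1163 unadjusted). With the replicate block on all arrays, 946, 1229 and 2 genes were called, again in that order, and it changed no call on a member. Slide as a block was not run, because each slide holds sham or ischaemic arrays only.

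Member differences changed sign in 30 of 464 checks, and the called differences of Fgf2 from sham changed sign in none. With the mean over probes, Ntrk2 was -0.29 in VEGF and -0.59 in MCAO against sham, and Cntf -0.0588 in VEGF against MCAO. With array weights, Bdnf was 0.00628 for MCAO against sham, while between VEGF and MCAO Bdnf was -0.0323, Ntrk2 -0.0811 and Fgf2 -0.0222. Without the array pair, Bdnf was 0.14 in VEGF against sham, and in VEGF against MCAO Ntrk2 was -0.0459 and Fgf2 -0.13. Leaving out 1 array gave these ranges in comparisons with sham: Igf1 -0.10 to 0.28 in MCAO, Ntrk2 -0.0539 to 0.28 in MCAO and Bdnf -1.004 to 0.14 in VEGF. In VEGF against MCAO they were Bdnf -0.60 to 0.92, Gdnf -2.62 to 0.0525, Ntrk3 -0.44 to 1.01, Ntf3 -1.76 to 1.15, Cntf -0.40 to 0.55, Fgf2 -0.37 to 0.40 and Ntrk2 -0.0478 to 0.30. The causes of these changes were not tested.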
